A study of Mus musculus with 5 samples.

Results

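This account covers a set of microRNA genes that are best known from neurons and pancreatic islets, and the REST peaks called within 50 kb of them in embryonic mouse pancreas. The RE1-silencing transcription factor, REST, holds neuronal genes in check outside neurons. The set was made of Mir9-1, Mir9-2, Mir9-3, Mir132, Mir212 and Mir375 by name, plus every annotated gene whose symbol starts with Mir124. That prefix took in Mir124a-1 and Mir124a-3, and also Mir1247 and Mir1249, which are other microRNAs that only share the digits. The set therefore held 10 of the 531 annotated Mir genes, and counts are also given for the 8 genes that remain without Mir1247 and Mir1249. Of the 1860 genomic sites made by joining overlapping peaks of the 5 libraries, 14 lay within 50 kb of a gene of the set.

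The study mapped REST by ChIP-seq, using monoclonal 12C11, in whole pancreas of untreated wild-type embryos of mixed strain with C57BL/6. E18.5 was covered by 3 libraries (A, B and C) of 3 to 4 pooled pancreases each, and E13.5 by 2 libraries (A and B) of 4 to 6 pooled pancreases each. Progenitors are abundant in the E13.5 organ, whereas the E18.5 organ holds differentiated acinar, duct and endocrine cells, and a peak from whole pancreas cannot be assigned to a cell type. The label of the tissue could not be checked against marker genes, because peak lists hold no expression values.

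The E18.5 lists held 226 to 541 peaks and the E13.5 lists 1333 to 1400. Read depth is unknown for all of them, and differences in depth and differences between the stages cannot be told apart. A gene without a peak is one where none was called, which is no measurement of absent binding. Each peak carries a score of unstated unit, and it was turned into a percentile rank within its own library, where 100 is the highest.

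MicroRNAs are short RNAs that are cut from hairpins in longer transcripts and lower the output of messenger RNAs that carry a match to their seed, the bases at positions 2 to 8. REST is known in non-neuronal cells as a repressor of the genes for miR-9, miR-124 and miR-132, and miR-9 is described in turn to act on the Rest transcript. The microRNAs miR-132 and miR-212 are cut from a shared transcript and are known for induction by neuronal activity through CREB. In the pancreas, miR-375 is the abundant islet microRNA, known for its part in insulin secretion and in the growth of islet cells.

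Mature sequences show which of these genes make the same product, and RefSeq entries (GRCm38.p6) were matched for 8 of the 10 genes. Mir124a-1, Mir124a-3 and the 3p arm of miR-375 were not matched. The sequences are written 5′ to 3′ with the seed in capitals. Mir9-1, Mir9-2 and Mir9-3 carry identical mature sequences.
miR-9-5p: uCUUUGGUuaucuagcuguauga
miR-9-3p: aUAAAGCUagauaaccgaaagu
The miR-132 and miR-212 pair share the seed of their 3p arms and were identical at 17 of 22 positions there.
miR-132-3p: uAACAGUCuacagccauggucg
miR-212-3p: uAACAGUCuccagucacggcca
Their 5p arms have different seeds.
miR-132-5p: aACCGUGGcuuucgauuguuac
miR-212-5p: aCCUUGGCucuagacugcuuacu
For miR-375 only the 5p arm could be compared, and its seed is carried by none of the 6 sequences above. The 3p arm of miR-375 has its own seed, which is not shown or compared here.
miR-375-5p: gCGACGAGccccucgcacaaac

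REST recognises a 21-bp element, RE1. Its consensus was read here from 936 of 1172 sites that were called in both E13.5 libraries and lay more than 50 kb from the set, so these genes did not shape it.
RE1 consensus: TTCAGCACCATGGACAGCGCC
An RE1 match was a stretch on either strand with at most 5 mismatches to it, in a 500-bp window centred on the site. Differences are written with the consensus base, the position counted from 1 at the 5′ end of the consensus, and the base at the site. The elements that the results turn on follow, each from the mm9 genome on the strand of the element, with the 21-bp match in capitals and 20 bases on both sides.
Mir9-1, 5.084 kb downstream, chr3:88024927-88024987, plus strand: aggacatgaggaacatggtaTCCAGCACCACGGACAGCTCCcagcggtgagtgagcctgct
Mir375, 8.625 kb downstream, chr1:74938262-74938322, minus strand: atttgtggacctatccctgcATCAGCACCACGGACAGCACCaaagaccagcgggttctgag
Mir375, 42.146 kb downstream, chr1:74904784-74904844, minus strand: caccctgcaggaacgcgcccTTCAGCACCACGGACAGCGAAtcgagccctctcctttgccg
Mir124a-1, 21.606 kb upstream, chr14:65187585-65187645, minus strand: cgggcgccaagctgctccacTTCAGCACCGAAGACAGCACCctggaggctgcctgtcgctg
Mir124a-3, 0.186 kb downstream, chr2:180629220-180629280, minus strand: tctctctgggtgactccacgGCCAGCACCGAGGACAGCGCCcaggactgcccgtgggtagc
Mir1249, 13.87 kb upstream, chr15:84796176-84796236, plus strand: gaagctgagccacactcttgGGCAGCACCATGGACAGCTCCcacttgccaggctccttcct

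At the pair Mir212 and Mir132 the element sits between the hairpins, so the whole 186-bp stretch between them is shown (chr11:74986981-74987166, plus strand of mm9). The capitals mark the match, which is on the minus strand and therefore appears here as its reverse complement.
Mir212 to Mir132: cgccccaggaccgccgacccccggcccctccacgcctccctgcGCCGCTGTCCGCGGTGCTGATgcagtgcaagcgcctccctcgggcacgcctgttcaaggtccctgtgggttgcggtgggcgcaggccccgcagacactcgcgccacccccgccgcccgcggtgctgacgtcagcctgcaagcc

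Most of the genes had a REST peak nearby. A peak within 50 kb was called in at least 2 E18.5 libraries for 4 of 10 genes (40%), against 2.26% of all annotated Mir genes (12 of 531, the set included). In both E13.5 libraries, 8 of 10 genes (80%) had such a peak, against 7.34% of all Mir genes (39 of 531). Without Mir1247 and Mir1249 the counts were 4 of 8 for E18.5 and 7 of 8 for E13.5. In any library the count was 8 of 10, against 8.66% of all Mir genes. The same 8 genes made up the counts for both E13.5 libraries and for any library, and the 2 without a peak in any library were Mir9-2 and Mir1247. Many microRNA genes lie in clusters that share a peak, and when clusters were counted in place of genes the E13.5 share of the whole annotation was 11.3%. For protein-coding genes the E13.5 share was 8.19%. The set itself was not counted by cluster, although Mir132 and Mir212 share their peaks, so its counts and the 11.3% are in unlike units. The genes were chosen with earlier results of these data known, so these shares are set side by side and carry no test.

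The peaks lay close to the genes. Within 10 kb, 4 of 10 genes kept a peak in at least 2 E18.5 libraries and 6 of 10 in both E13.5 libraries, against 1.13% of all Mir genes in at least 2 E18.5 libraries and 2.07% in both E13.5 libraries. Those 6 were Mir9-1, Mir9-3, Mir132, Mir212, Mir375 and Mir124a-3. Mir124a-1 had a peak this near in E13.5 A alone, and Mir1249 had none this near.

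**Figure D1:**
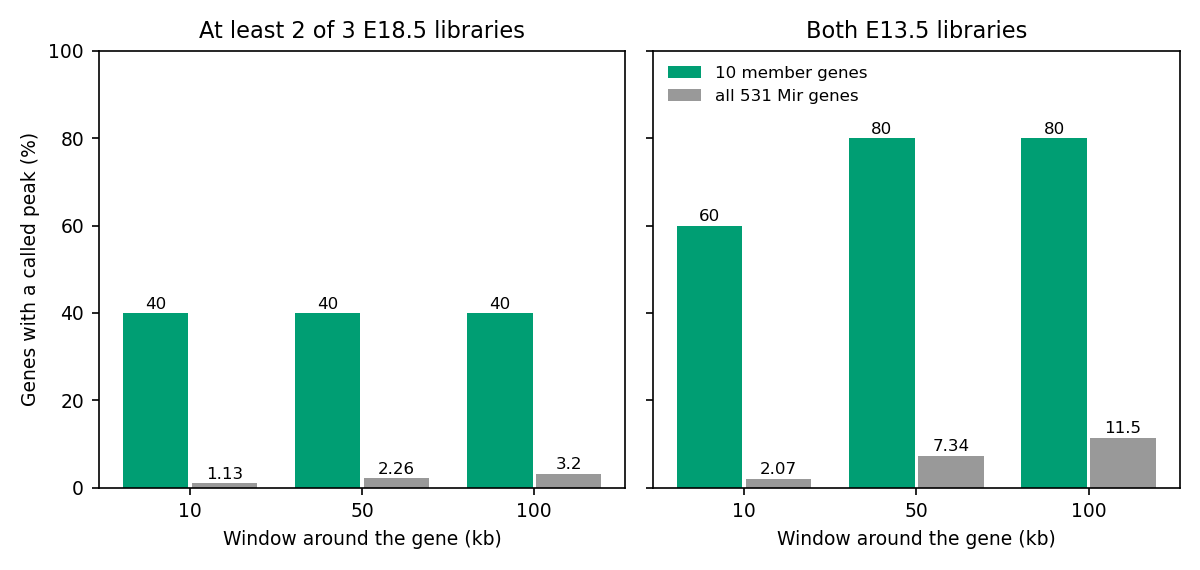
Share of genes (y axis, %) with a called peak within 10, 50 or 100 kb (x axis) in at least 2 of 3 E18.5 libraries (left) and in both E13.5 libraries (right), for the 10 genes of the set (green, "member genes") and all 531 annotated Mir genes (grey). At 50 kb the green bars stand at 40% and 80%, and the grey bars at 2.26% and 7.34%.

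The counts of 4 genes at E18.5 and 8 at E13.5 changed when all lists were cut to the same length. The cut left the list of E18.5 C whole, and the cause of the difference was not tested. With the 226 top-scoring peaks taken from each library, 3 of 10 genes kept a peak in 2 or more E18.5 libraries, against 1.69% of all Mir genes, and 3 of 10 in both E13.5 libraries, against 1.51%. At E18.5 these were Mir132, Mir212 and Mir9-3, and at E13.5 Mir132, Mir212 and Mir1249. The E18.5 count also changed when single libraries were left out: it was 2 without E18.5 A, 2 without E18.5 B and 0 without E18.5 C. Each time a peak was asked for in both remaining E18.5 libraries, which is stricter than 2 of 3. No gene of the set had a peak in all 5 libraries, so the planned comparison of ranks between the stages could not be run, and 3 libraries against 2 allow an exact permutation p no smaller than 0.2.

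Mir212 and Mir132 had the peak in the closest position of the set. Both lie 5′ to 3′ on the plus strand of chromosome 11 (mm9), Mir212 at 74986890-74986980 and Mir132 at 74987167-74987267, in an intron of the long non-coding RNA 1700016P03Rik. A site of 548 bp (chr11:74986755-74987302) covered both hairpins. At E18.5 it had a score of 10 (rank 84.2) in B and 15 (rank 71.9) in C, and no peak was called in A. At E13.5 it had 30 (rank 90.9) in A and 33 (rank 87.3) in B. The 4 peaks all ranked in the upper part of their lists, and this site alone of the 14 stayed among the top 226 peaks of 4 libraries. The genes share this site, so they count as 1 observation of binding and not as independent ones.

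The element between the hairpins starts at base 44 of the printed stretch, 123 bp from Mir132 and 44 bp from Mir212. It differs from the consensus by T1A, A10G, T11C and C20G. It lay 6 and 48 bp from the centres of the E18.5 peaks of C and B, and 5 and 10 bp from those of the E13.5 peaks of B and A. A short additional peak upstream (chr11:74986612-74986741) was called in E13.5 A alone, with a score of 9 (rank 21.6), and its window held no RE1 match. The stretch between the hairpins is rich in G and C (75.8%).

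The 3 genes for miR-9 make the same RNA and differed in what was called beside them. Mir9-1 (chr3:88019520-88019608, plus strand) lies in the long non-coding RNA Gm3764, and a site of 570 bp in an exon of that transcript was 5.084 kb downstream of the hairpin. The site had a score of 6 (rank 48.2) in E18.5 A and 10 (rank 41.6) in E18.5 C, with no peak in E18.5 B, and a score of 24 (rank 82.1) in E13.5 A and 32 (rank 85.9) in E13.5 B. Its element, printed above, differs from the consensus by T2C, T11C and G19T. All ranks at E18.5 were below both at E13.5.

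Mir9-3 (chr7:86650150-86650239, plus strand) lies in the long non-coding RNA AI854517. Its site (chr7:86644033-86644565) was 5.585 kb upstream of the hairpin and 0.704 kb upstream of the start of that transcript. The scores were 7 (rank 61.3) in E18.5 A and 9 (rank 27.0) in E18.5 C, with no peak in E18.5 B, against 25 (rank 83.8) in E13.5 A and 27 (rank 77.7) in E13.5 B. So the same E18.5 libraries, A and C, called the sites of Mir9-1 and Mir9-3, while the Mir212 and Mir132 site was called in B and C.

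The best 21-bp stretch at Mir9-3 had 8 mismatches and did not count as a match. REST is also known to bind elements whose left and right parts lie at another spacing, so consensus positions 1 to 9 and 12 to 21 were searched with 0 to 20 bases between them, a search added after the data were seen. At Mir9-3 the parts were found with 1 base between them and 3 mismatches in all, inside the peak of each of the 4 libraries that called the site. The parts are in capitals below.
Mir9-3, 5.585 kb upstream, chr7:86644291-86644310, plus strand: TTCAGCATTtGGACAGCGGC

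Just outside the window, 50.355 kb downstream of Mir9-3, another site was called in E13.5 B alone, with a score of 12 (rank 23.7). Mir9-2 (chr13:83878411-83878497, plus strand) lies in the long non-coding RNA C130071C03Rik. None of the 5 libraries had a peak within 100 kb of it, and the nearest site was 5567.5 kb away.

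Mir375 stood apart from the genes above in that none of its peaks was called at E18.5. The gene (chr1:74947226-74947300, minus strand) overlaps no annotated gene and had 3 sites within 50 kb. The nearest (chr1:74938030-74938601) was 8.625 kb downstream in an exon of Cryba2, a crystallin gene, and had a score of 20 (rank 72.5) in E13.5 A and 28 (rank 79.8) in E13.5 B. Its element differs from the consensus by T1A, T11C and G19A, and it lay 8 and 23 bp from the centres of the A and B peaks.

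The other Mir375 sites had low ranks. The site 42.146 kb downstream, 3.325 kb from the start of Cdk5r2, an activator subunit of the kinase Cdk5, had a score of 8 (rank 15.4) in E13.5 A and 16 (rank 44.3) in E13.5 B. Its element carries T11C, C20A and C21A. The site 39.209 kb upstream (chr1:74986509-74986654) was called in E13.5 A alone, with a score of 11 (rank 33.1), and its element carries T1A, T2C, T11C and G19T. Every one of the 3 sites near Mir375 thus held an RE1 match, with 3, 3 and 4 mismatches. Because Cryba2 and Cdk5r2 are nearer to their sites than Mir375 is, the peak lists alone do not tie these sites to the microRNA.

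The 2 miR-124 genes of the set also differed from each other. The set took miR-124 genes by symbol alone, so any annotated under another symbol would be missed. Mir124a-1 (chr14:65209494-65209578, plus strand) lies in the long non-coding RNA A930011O12Rik and had 3 sites, all upstream. The site 21.606 kb away had a score of 6 (rank 53.4) in E18.5 B, against 29 (rank 89.8) in E13.5 A and 27 (rank 77.7) in E13.5 B. The site 43.422 kb away had a score of 8 (rank 73.6) in E18.5 B, against 27 in E13.5 A (rank 86.9) and in E13.5 B (rank 77.7). E18.5 A and C called neither of them.

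The nearer of these sites has an RE1 match with the differences A10G, T11A, G12A and G19A. In the farther one the best 21-bp stretch had 7 mismatches, but the left and right parts were found with 8 bases between them and 3 mismatches in all.
Mir124a-1, 43.422 kb upstream, chr14:65165811-65165837, plus strand: ATCAGCACCactccggcGGACAGCTCA
The site nearest to Mir124a-1 was 5.064 kb upstream (chr14:65204312-65204430), was called in E13.5 A alone with a score of 7 (rank 9.18), and held no RE1 match.

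Mir124a-3 (chr2:180628736-180628822, plus strand) overlaps no annotated gene and had no E18.5 peak within 50 kb. A site began 0.186 kb downstream of the hairpin (chr2:180629008-180629492) and had a score of 17 (rank 62.6) in E13.5 A and 12 (rank 23.7) in E13.5 B. Its element carries T1G, T2C, A10G and T11A, lay at the centre of the B peak and 14 bp from the centre of the A peak. Both remaining sites were called in E13.5 B alone: 8.467 kb upstream with a score of 13 (rank 29.5) and no match, and 48.724 kb upstream with a score of 8 (rank 4.46) and a match of 5 mismatches.

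Of the genes that only share the prefix, Mir1249 (chr15:84781956-84782053, minus strand), inside the protein-coding gene 5031439G07Rik, had the highest-ranked site at E13.5. That site (chr15:84795923-84796485) was 13.87 kb upstream in an intron and had a score of 7 (rank 61.3) in E18.5 A, against 30 (rank 90.9) in E13.5 A and 36 (rank 90.5) in E13.5 B. The element differs from the consensus by T1G, T2G and G19T. Mir1247 (chr12:111516258-111516339, minus strand) had no peak within 100 kb, and the nearest site was 1282.92 kb away.

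**Figure D2:**
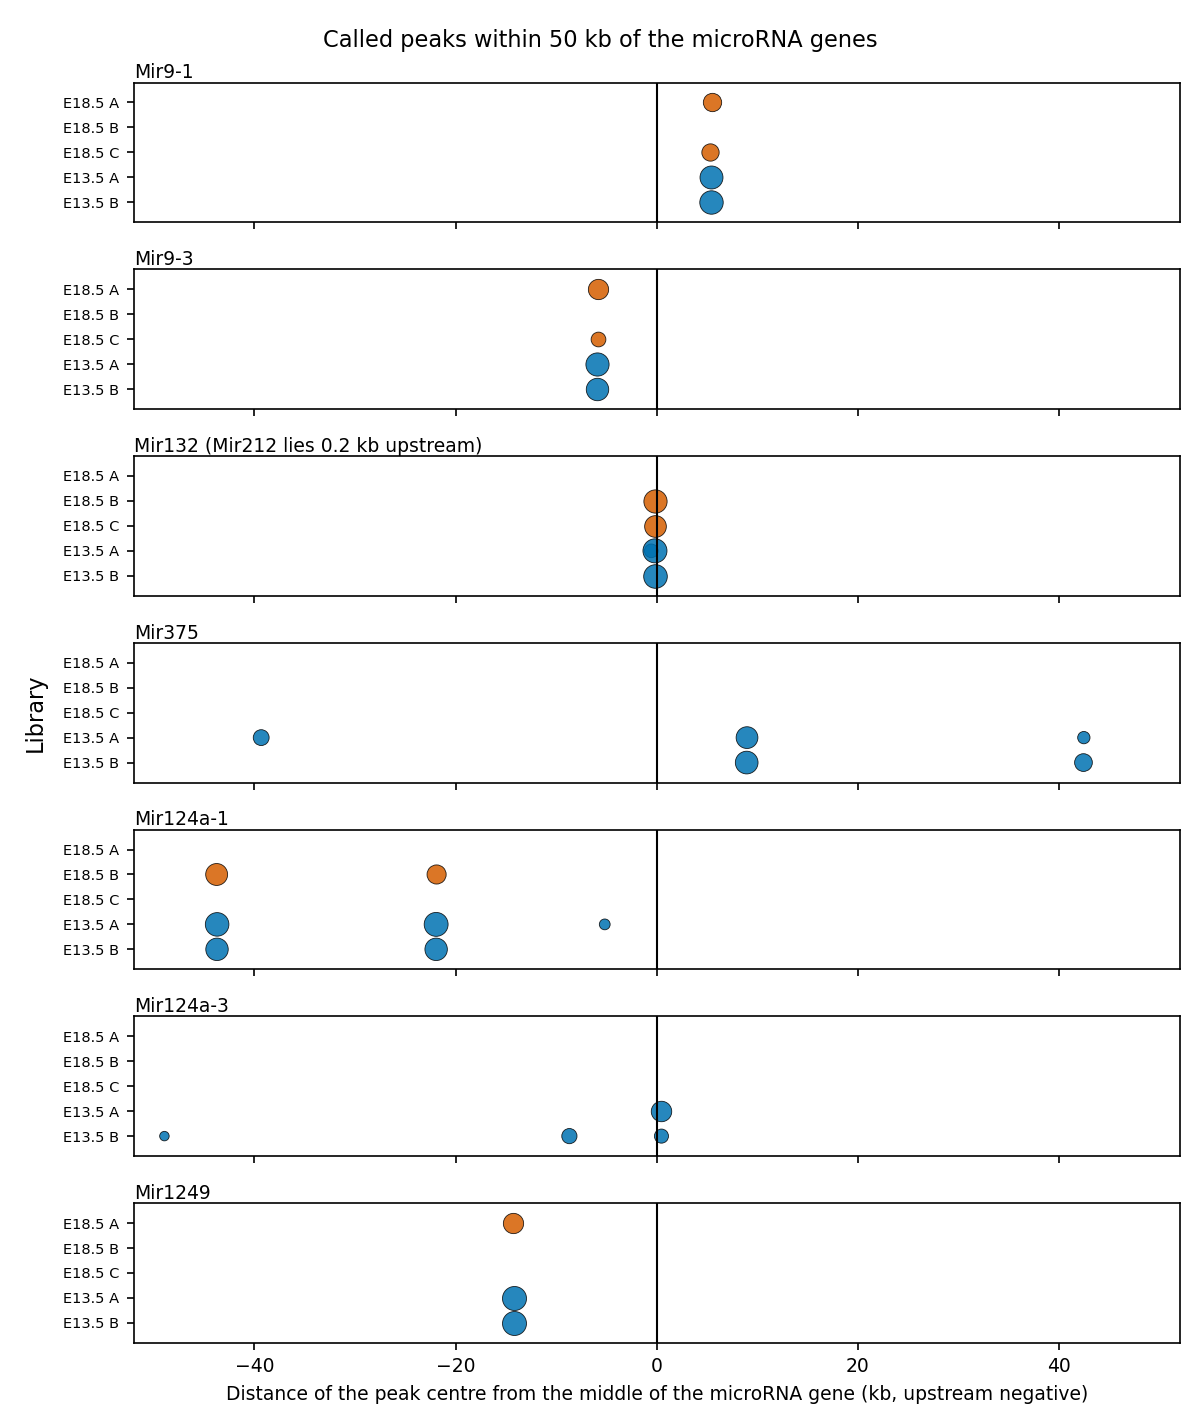
Called peaks by distance of the peak centre from the middle of the microRNA gene (x axis, kb, upstream negative) in each library (y axis), E18.5 in orange above E13.5 in blue, with larger circles for higher percentile ranks. The peaks at Mir132 sit on the gene in 4 libraries, Mir375 and Mir124a-3 have blue circles alone, and the Mir124a-1 peaks lie upstream, the nearest at -5.165 kb in E13.5 A.

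Across the set, 9 of the 14 sites were called in both E13.5 libraries, and 6 of these 9 also had an E18.5 peak, 3 of them in 2 E18.5 libraries. Of all 1186 sites called in both E13.5 libraries, 40.5% were called in some E18.5 library as well. That share follows the rank at E13.5. With the sites split into 5 equal bins by mean E13.5 rank, it was 8.82% in bin 1 (the lowest ranks) and 90.3% in bin 5, where 5 sites of the set lay. Among the 7 sites of the set with mean ranks of 76.1 to 90.7, 6 (85.7%) had an E18.5 peak, against 161 of 197 (81.7%) of all such sites in the same range of ranks. At matched E13.5 rank, then, the share of sites called again at E18.5 was near that of REST sites in general.

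The exception among these 7 was the Mir375 site 8.625 kb downstream, which had the lowest mean rank of them (76.1). The Mir375 site farther downstream and the Mir124a-3 site had mean ranks of 29.9 and 43.2. The sites at 29.9 and 43.2 lay in bin 2, where 14% of all sites had an E18.5 peak. The site at 76.1 lay in bin 4 (mean ranks of 62.9 to 80.9), where 55.3% had one. In the higher range of 76.1 to 90.7, of which it is the lower end, 81.7% had one. Why these sites had no E18.5 peak was not tested. Of the 9 sites called in both E13.5 libraries, 3 were called in each E18.5 library. A and C shared 2 of them, B and C shared 1, and A and B shared none. Of the 197 sites in the matched range, A and C shared 54, B and C 44, and A and B 56.

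All 6 sites with peaks at both stages had every E18.5 rank below both E13.5 ranks. The same order was found in 65% of all 480 sites with peaks at both stages. Ranks at the stages are taken in lists of different length, so a lower rank is a place in a shorter list and not a smaller amount of bound REST.

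**Figure D3:**
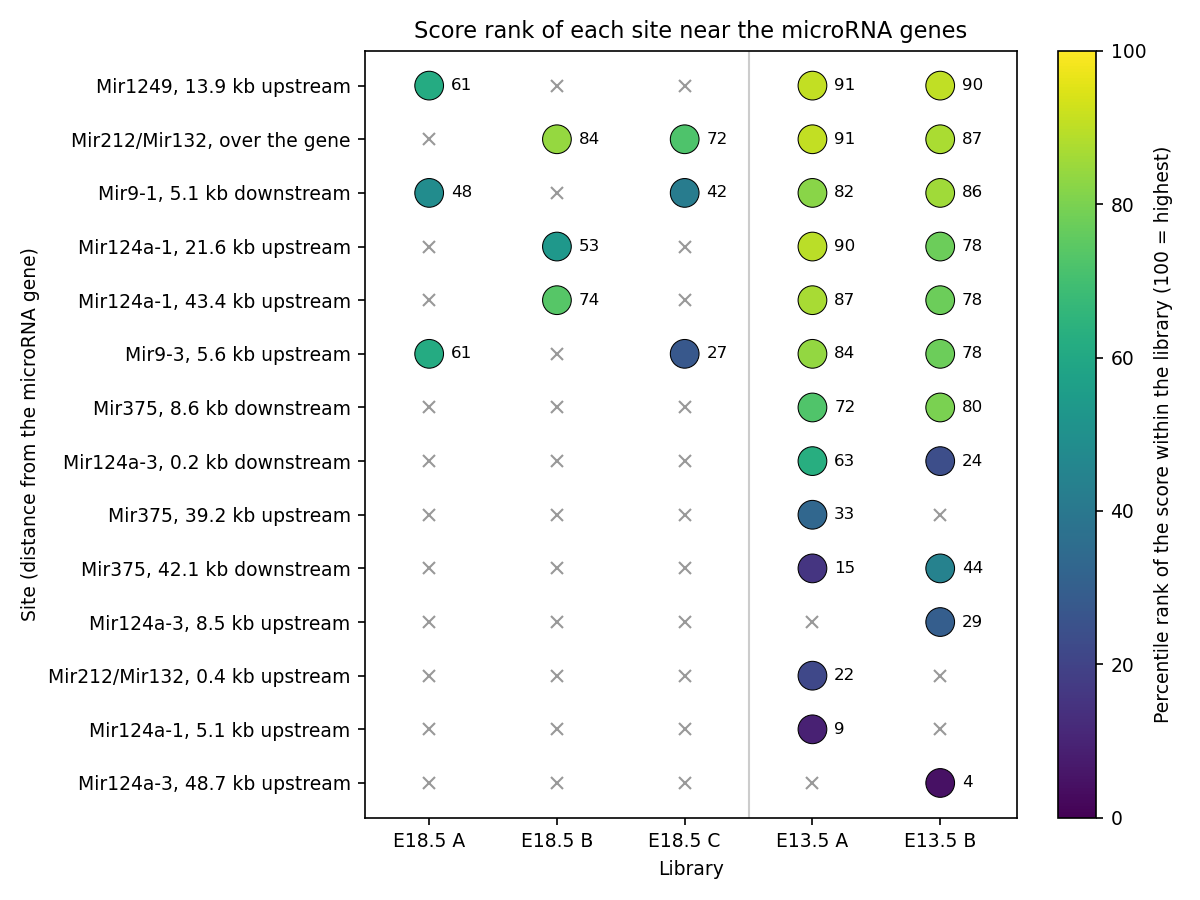
Percentile rank of each of the 14 sites (rows, named by gene and distance, in order of mean E13.5 rank with the highest on top) in each library (columns, E18.5 left of E13.5), with colour and number for the rank and a cross where no peak was called. The site over Mir212 and Mir132 has ranks of 84 and 72 at E18.5 and 91 and 87 at E13.5, and the 8 rows from the Mir375 site 8.6 kb downstream to the bottom have no E18.5 peak.

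**Figure D4:**
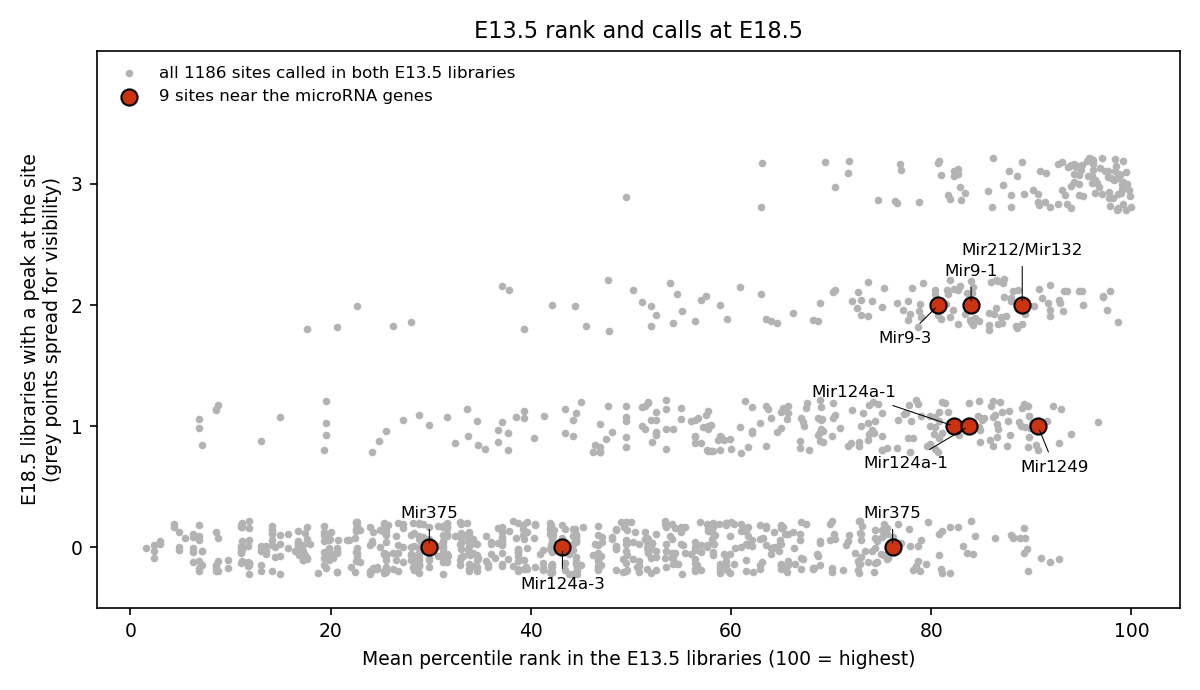
Mean percentile rank in the E13.5 libraries (x axis) and number of E18.5 libraries with a peak (y axis, grey points spread up and down for visibility) for the 1186 sites called in both E13.5 libraries, with the 9 sites near the set in red. The red points at 2 and 1 libraries have mean ranks from 80.7 to 90.7, and the 3 at 0 libraries are the Mir375 and Mir124a-3 sites.

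An RE1 match was found at 9 of the 14 sites, against 54.6% of all sites searched (1010 of 1849). Of the 9 sites called in both E13.5 libraries, 7 had a match (77.8%), against 71.3% of all such sites (843 of 1183). Of the 5 sites called in 1 library, 2 had a match (40%), against 25% of all sites called in 1 library. The shares near the set were thus close to those of REST sites in general. In windows of the same length 10 kb downstream, no site of the set came below 7 mismatches, and 0.254% of the windows beside sites called in both E13.5 libraries held a match.

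The 2 sites of both E13.5 libraries without a match, at Mir9-3 and Mir124a-1, both held the parts of the element at another spacing with 3 mismatches. Of all 340 such sites without a match, 50.6% did so at this number of mismatches or fewer, against 0.882% of the windows 10 kb away. With these included, every one of the 9 sites called in both E13.5 libraries held an RE1 match or its parts. Most REST sites do so too: 71.3% of all sites called in both E13.5 libraries held a match, and 50.6% of the others held the parts. The search for the parts was added after the data were seen, so the full count is no trait of this set.

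The 9 matches shared a core. Consensus positions 3 to 9, CAGCACC, were unchanged in all 9, as were positions 13, 14, 16 and 17. Apart from position 6, these positions carried the consensus base in 88.5% (position 3) to 99.8% (position 8) of the sites behind the consensus. The 9 elements were also selected for at most 5 mismatches to it, so an unchanged core follows largely from that choice. Position 11 carried the consensus T in 1 of 9 elements, against 52.2% of the sites behind the consensus, and position 1 carried it in 3 of 9, against 55.2%. Position 6 is C in 61.5% of those sites and was C in all 9. These are counts over few elements and carry no test. The match lay inside the called peak in all 6 E18.5 peaks and in all 16 E13.5 peaks of these sites. Its distance from the peak centre had a median of 46 bp (range 6 to 116) at E18.5 and of 8 bp (range 0 to 74) at E13.5.

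**Figure D5:**
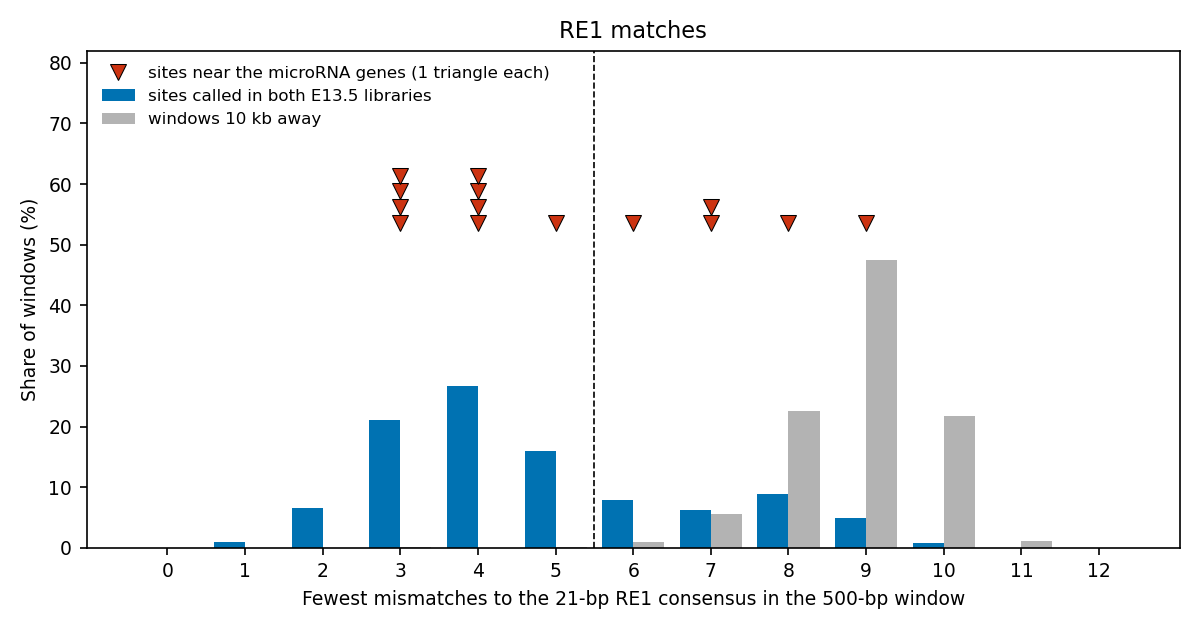
Fewest mismatches to the RE1 consensus in a 500-bp window (x axis) as a share of windows (y axis, %) for sites called in both E13.5 libraries (blue) and windows 10 kb away (grey), with a red triangle for each of the 14 sites near the set (triangle height has no scale). The dashed line marks the limit for a match, with 9 triangles to its left at 3 to 5 mismatches.

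Some other microRNA genes of neurons also had REST peaks nearby. Of 32 matched genes on a list of neural microRNAs outside the set, 2 had peaks within 50 kb in 2 or more E18.5 libraries and 7 in both E13.5 libraries, beside 2.26% and 7.34% of all Mir genes. The 2 were Mir7b, made in neuroendocrine tissue, and Mir137, a brain microRNA. The site 0.511 kb from Mir7b was called in all 5 libraries, with ranks of 90.7, 66.3 and 58.2 in E18.5 A, B and C and of 95.6 and 98.0 in E13.5 A and B, above every site of the set at E13.5. The Mir137 site, 2.0 kb away, had ranks of 48.2 and 29.5 in E18.5 A and B and of 92.8 and 79.8 in E13.5 A and B. Neither held a 21-bp RE1 match, with 8 and 7 mismatches. The search for the parts of the element at another spacing is not reported for these sites, so they may hold such parts.

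Next on that list by mean E13.5 rank were Mir129-1 (86.6, a site 39.7 kb away), Mir346 (77.8, 26.9 kb), Mir129-2 (61.7, 3.84 kb) and Mir139 (28.4, 37.1 kb). Each was called in both E13.5 libraries, and the first 3 in 1 E18.5 library each. Counting all annotated Mir genes outside the set, 9 had a site within 10 kb, at 8 places in the genome. After Mir7b, Mir137 and Mir129-2 these included Mir692-2a and Mir147, called in both E13.5 libraries at mean ranks of 29.9 and 6.25, and Mir702, called in E13.5 B alone.

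Lists of microRNAs from other tissues were read beside the same 2.26% and 7.34%. On the list of sensory and epithelial microRNAs, 1 of 13 genes, Mir203, known from skin, had a site in both E13.5 libraries (ranks 86.9 and 57.3) and in E18.5 A and C (ranks 76.7 and 27.0). On the list for muscle, blood and endothelium it was 2 of 18, Mir1a-1 and Mir133a-2, which share a site and had no E18.5 peak. On the exocrine and liver list none of 8 genes had a peak in any library. Among 13 genes of the machinery that makes and uses microRNAs, Tnrc6a, a partner of Argonaute proteins, had a site in both E13.5 libraries (mean rank 65.0, 40.1 kb away). These code for proteins, so this 1 of 13 stands beside 8.19% of all protein-coding genes and is near that share.

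The microRNAs of the set have described targets, and 18 such genes were looked up in the same way. In at least 2 E18.5 libraries 1 of them, Rest itself, had a site, which overlapped the gene (chr5:77694792-77695424), beside 2.64% of all protein-coding genes at this criterion. Its ranks were 91.0 in E18.5 B and 27.0 in E18.5 C, against 33.1 in E13.5 A and no peak in E13.5 B. In both E13.5 libraries it was 2 of 18, beside 8.19% of all protein-coding genes, namely Nr2e1 and Elavl2, both with sites that overlapped the gene and mean ranks of 14.1 and 34.6. Nr2e1 encodes the neural stem cell receptor TLX, and Elavl2 a neuronal RNA-binding protein. The sites at Rest and Nr2e1 held no 21-bp RE1 match, with 7 and 9 mismatches, and the Elavl2 site held a match with 5. The search for the parts of the element at another spacing is not reported for these sites either.

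The seed of miR-9-5p has its complement, ACCAAAG, in the 3′ UTRs of 7 of these 18 genes, against 11.4% of 19915 genes with a 3′ UTR. For each gene the annotated transcript with the longest 3′ UTR was searched (mm9). The described targets have longer 3′ UTRs, with a median of 2543 bases against 893 in all genes, and they were listed because such matches are known, so the share is a description. The Rest and Mtpn matches are shown with the complement of the seed in capitals. Mtpn, myotrophin, is better known as a target of miR-375.
miR-9-5p match in the Rest 3′ UTR: tctgaggcaaACCAAAGgtatatttct
miR-9-5p match in the Mtpn 3′ UTR: tttatagtgcACCAAAGgtatcactgg
The complement of the seed that miR-132-3p and miR-212-3p share, GACTGTT, was present in 10.01% of all 3′ UTRs. Described targets with it included Rcor1, which encodes the REST corepressor CoREST, Arhgap32 and Elavl4. No match says only that these letters are not in the 3′ UTR searched, and microRNA levels were not measured in these libraries.
miR-132-3p and miR-212-3p match in the Rcor1 3′ UTR: tctggactgtGACTGTTacagtcaaga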

How the data were processed

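REST ChIP-seq was made from pools of whole embryonic pancreas, with 3 libraries at E18.5 and 2 at E13.5. Per the methods of the study and the submitters' processing notes, single-end 50-bp reads were aligned with Bowtie2 2.2.5 allowing 1 mismatch, reads mapped with a quality under 10 were dropped, and peaks were called against input with MACS2 2.1.0. SAMtools is named too. Those methods describe the E13.5 libraries and pool the replicates before peaks are called. The lists used here hold peaks per library, so they are not that pooled peak set. The processing notes name NCBI36 and mm9, and peak positions were checked against the mm9 chromosome lengths.

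The deposited lists hold 1 set of peaks per library, with a score set by the authors, a whole number of unstated unit. List names state a false discovery rate of 10%, a looser limit than the methods of the study give. Read totals were not used here, so depth is unknown and no interval for depth is given.

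Repeated or overlapping entries within a library were merged with the highest score kept, and peaks of the 5 libraries that overlapped by at least 1 bp were joined into sites. Genes were those of GENCODE vM1. Mir9-1 and Mir9-3 have no such symbol there and were placed by an exact match of their RefSeq hairpins to mm9. The RE1 search was tested on simulated data. Python 3.11.15, numpy 2.4.6, pandas 2.3.3, scipy 1.17.1 and pysam 0.24.0 were used.

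The genes, lists and rules were chosen with earlier results of these data known. Every gene of the set and every site within 50 kb is named. Of other Mir genes with a site within 10 kb, up to 6 are named by number of libraries and then E13.5 rank, and of each list up to 6 genes with a site in both E13.5 or at least 2 E18.5 libraries. No statistical test was run. Alternatives were windows of 10 and 100 kb, scores of 13 or more, the 226 top peaks of each library, stricter overlap, other mismatch limits and each library left out. A seed match in another described target is not reported here.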

Additional observations from a re-analysis of the deposited data

How the results depend on the processing

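The count of genes with a peak in at least 2 E18.5 libraries was 4, became 0 at scores of 13 or more, and ranged from 0 to 4 with each library left out. With an E18.5 library left out, a peak was asked for in both remaining E18.5 libraries, which is a stricter criterion. Scores may not share a scale between libraries. The count for both E13.5 libraries was 8, became 3 with the 226 top peaks of each library, and stayed at 8 with each library left out. That last result was fixed in advance. Leaving out an E18.5 library does not touch this count, and leaving out an E13.5 library asks for a peak in the remaining one alone. The count for any library stayed at 6 to 8 under all alternatives, the lowest with the 226 top peaks. The number of sites was 14, and it was 8 within 10 kb, 6 with the 226 top peaks (a setting chosen after seeing the data), 19 when peaks had to overlap by at least 50% of both, and 11 to 14 with each library left out. Sites with an RE1 match numbered 9, against 4 with at most 3 mismatches, 12 with at most 7, 9 in a 200-bp window and 8 to 9 with each library left out. With the parts of the element at any spacing up to 20 bases and at most 4 mismatches, 11 sites had a match. The share of all Mir genes with a peak in both E13.5 libraries moved between 1.51% (226 top peaks) and 11.5% (100 kb). The causes were not tested. No paired analysis was possible because equal letters at E18.5 and E13.5 mark different pools of embryos and no result comes from a test. The comparison of ranks between the stages and its alternatives were not run, since no gene had a peak in all 5 libraries.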

Other observations

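Values outside the comparisons concern sites just beyond the window. The site called in E13.5 A alone 97.4 kb downstream of Mir1249, in an intron of Phf21b, had a score of 11 (rank 33.1), and with the site 50.355 kb from Mir9-3 it made up the 16 sites found within 100 kb of the set, against 14 within 50 kb.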
